A study of Danio rerio with 9 samples.

Results

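Skeletal muscle RNA of zebrafish labelled *bves* knockout that swam for 8 weeks was set against that of untrained fish labelled *bves* knockout. The comparison asks how the muscle transcriptome differed between libraries with these labels. It does not settle the effect of training on a knockout background, because *bves* RNA did not follow the label in every exercised library, as given below. The members were taken from the sample labels, as the 3 libraries labelled *bves* KO-EX and the 3 labelled *bves* KO, that is 6 of the 9 libraries of the study, and the 3 WT libraries are given beside them as a reference level. WT fish were of the AB strain, and the *bves* KO and *bves* KO-EX fish are both labelled as knockouts, from lines with a frameshift allele of *bves* made by CRISPR-Cas9 in exon 2. The knockout was present in the whole animal and not only in muscle, several mutant lines were made, and the sources used here do not say from which line the fish came. All fish were adult males of 12 months when training began, the exercised fish swam against a current in sessions of 1.5 h on 3 days in a row followed by 1 rest day, and the other groups stayed in the same water system without training. Muscle between the dorsal and the caudal fin of 2 fish was pooled into each library.

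Bves, also named Popdc1, is a membrane protein of striated muscle that binds cAMP through its Popeye domain, and loss of its function causes a limb-girdle muscular dystrophy in humans. Repeated endurance exercise is known to change skeletal muscle through calcium, energy and hormone signals, and it is best known for raising mitochondrial content, capillary supply and fatty acid use. Immediate early transcription factors and heat shock proteins are known to rise for hours after a bout of contraction and to return afterwards.

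The *bves* alleles were made with a pair of guide RNAs, whose target sequences are shown because the labels of every library compared rest on the alleles they made, and because the RNA of *bves* itself separated the exercised libraries. Each target has 20 bases, is given 5′ to 3′ on the strand of the guide and was read from the primers with which the guides were transcribed.
sgRNA-primer-F1: acccagcccgagactcaggt
sgRNA-primer-F2: tctattggtgctctacggga

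Sequenced depth was close to equal, with between 17422188 and 18860779 estimated counts per library. Levels are given as CPM, that is counts per 1e6 counts of the library after TMM scaling (a factor that offsets differences in RNA composition), with 3 libraries per group. The labelled tissue was borne out by its markers, since the summed CPM of 10 skeletal muscle fibre genes was 177287 to 198933 in *bves* KO and 162976 to 188451 in *bves* KO-EX, while 5 of 8 heart muscle markers had no count in any of the 6 libraries and none of the 8 passed the low-count filter. Replicates of a group differed by more than their counting error (chi-square per degree of freedom of 23.7 to 119), so no library was a copy of another. Mitochondrially encoded genes took 11.8% to 14.1% of the counts in *bves* KO and 16.2% to 23.4% in *bves* KO-EX, with KO-EX 1 highest. Of the WT libraries, WT 2 had the lowest TMM factor (0.763, against 0.930 to 1.17 in the 6 libraries compared). KO-EX 2 had the highest factor of all 9 libraries (1.17), and a higher factor lowers the CPM of a library.

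The targeted gene did not match its label in every exercised library. *bves* stood at 39.5, 57.2 and 43.8 CPM in WT 1, 2 and 3, at 7.94, 17.5 and 6.70 CPM in KO 1, 2 and 3, and at 47.4, 11.4 and 49.6 CPM in KO-EX 1, 2 and 3. KO-EX 1 and KO-EX 3 therefore lay within the WT range and KO-EX 2 within the *bves* KO range, so the exercised and unexercised groups overlapped. The difference between *bves* KO-EX and *bves* KO was 1.75 on the log2 scale (SE 0.542) and missed the threshold (adjusted p = 0.154, edgeR quasi-likelihood test with Benjamini-Hochberg adjustment). An exact permutation test (2-sided) of CPM over the 6 libraries gave p = 0.2, where 0.1 is the smallest value that 3 against 3 allows. Without KO-EX 2 the difference was 2.18 and called (adjusted p = 0.0339), and with KO-EX 2 as the only exercised library it was 0.08 (adjusted p = 0.972). A frameshift allele need not lower the RNA, and the counts do not tell a mutant from an intact message, so the genotype of the fish in KO-EX 1 and KO-EX 3 was not tested. Because of this, groups are named below by their labels only, and results are also given for KO-EX 2 alone, a fit in which that single library is assumed to vary like the others.

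**Figure D1:**
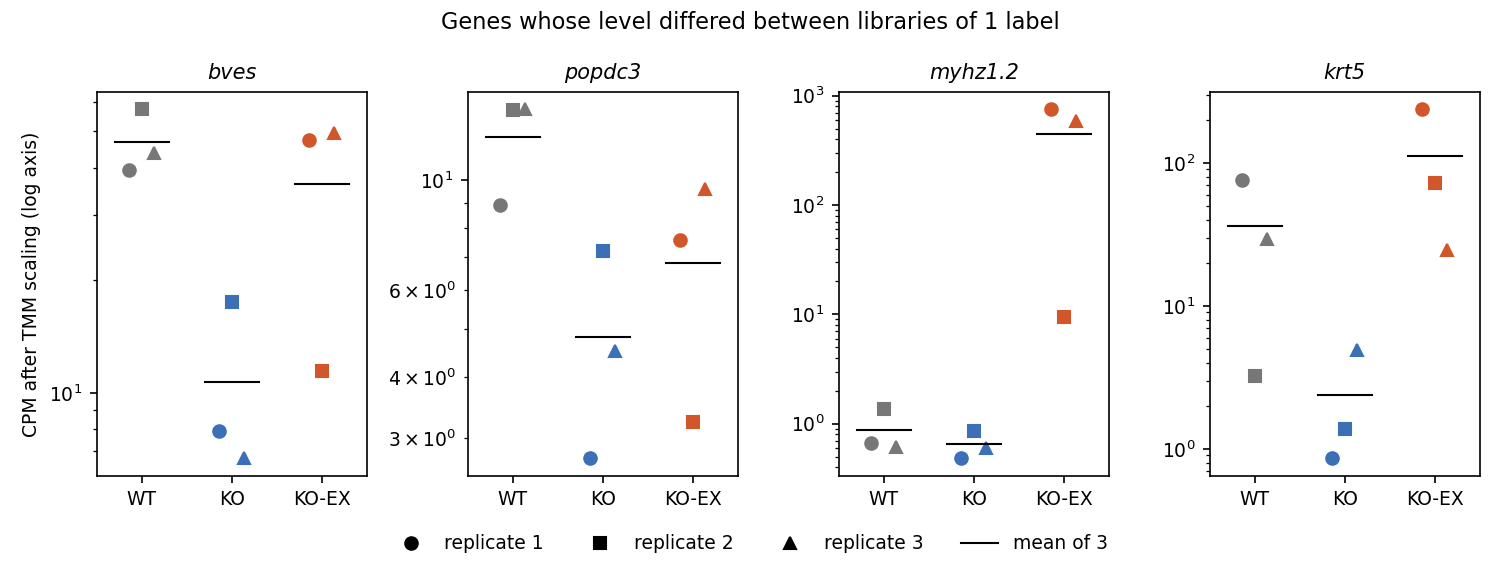
CPM after TMM scaling on a log axis for *bves*, its chromosomal neighbour *popdc3*, the fast myosin *myhz1.2* and the keratin *krt5*, with WT in grey, *bves* KO in blue and *bves* KO-EX in orange, 1 symbol per replicate number and a bar at the mean of 3 libraries. For *bves*, *popdc3* and *myhz1.2* the square of KO-EX (replicate 2) lies below the other exercised libraries, and for *bves* it lies at 11.4 CPM among the *bves* KO libraries, while for *krt5* the exercised libraries spread from 24.5 to 236 CPM.

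Across the transcriptome, 97 genes were higher and 111 were lower in the libraries labelled *bves* KO-EX than in *bves* KO, among 14849 genes tested. A gene was called when its adjusted p was under 0.05 and its fold change above 2. The called shares were 0.653% up and 0.748% down, or 1.4% in either direction. The counts of called list members below are to be read beside that 1.4%. The fold of the called genes had a median of 2.91 (2.00 to 689) among those up and 2.74 (2.03 to 9.72) among those down. Genes that rose started from low levels, with a median of 2.32 CPM in *bves* KO and 6.99 CPM in *bves* KO-EX, whereas genes that fell had a median of 20.2 CPM in *bves* KO and 6.99 CPM in *bves* KO-EX. Each of the 208 called genes had groups that did not overlap. Among all tested genes 12.2% were higher and 10.8% lower in every exercised library than in every unexercised library. The p-values measure the spread between these pools of 2 fish and not between single fish.

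**Figure D2:**
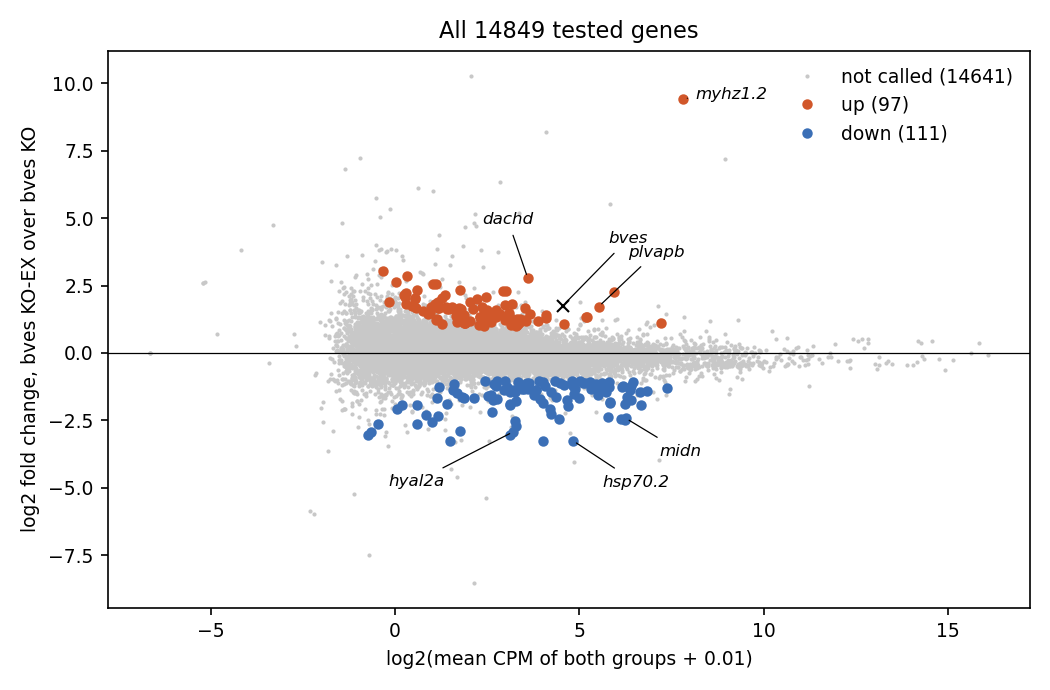
log2 fold change of *bves* KO-EX over *bves* KO (vertical axis) against log2(mean CPM of both groups + 0.01) (horizontal axis) for 14849 tested genes, with the 97 called up in orange, the 111 called down in blue and *bves*, which was not called, as a cross. Most called genes that rose lie at low levels, the calls that fell spread to higher levels, and *myhz1.2* stands apart at 9.43 on the log2 scale.

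These counts moved with single libraries. Without KO 1 there were 2 calls up and 18 down, without KO 3 there were 4 up and 31 down, and without KO 2 there were 50 up and 98 down. Leaving out KO-EX 1 gave 21 up and 52 down, KO-EX 2 gave 49 up and 54 down, and KO-EX 3 gave 21 up and 25 down. With KO-EX 2 as the only exercised library, 2 genes were called up and 3 down. Of the calls made with all libraries, 2 of 97 up and 17 of 111 down were kept in each of the 6 fits that left out 1 compared library. DESeq2 called more genes, 225 up and 225 down, and held 96 of the 97 and 111 of the 111. Total-count scaling moved the median of all tested genes from 0.01 to 0.11 on the log2 scale and the share of calls that were up from 46.6% to 55.0%.

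The genes that rose with the smallest p were of varied function. *afap1*, which encodes a protein bound to actin filaments, stood at 3.54, 3.98 and 3.21 CPM in KO 1, 2 and 3 and at 12.6, 10.9 and 13.4 CPM in KO-EX 1, 2 and 3. All exercised libraries were above all unexercised libraries and also above the WT libraries (7.76 to 9.72 CPM), by 1.78 on the log2 scale over *bves* KO (SE 0.193, adjusted p = 0.00465), and the difference was 1.59 in KO-EX 2 alone. *plvapb* encodes the protein that forms the diaphragms of endothelial fenestrae and caveolae. It was at 19.8, 17.2 and 27.2 CPM in KO 1, 2 and 3 and at 73.4, 67.4 and 70.5 CPM in KO-EX 1, 2 and 3, with no overlap and with WT at 12.8 to 19.4 CPM. The rise of *plvapb* was 1.72 on the log2 scale (SE 0.223, adjusted p = 0.00748) and 1.64 in KO-EX 2 alone.

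Transcription regulators were among the same 10 genes. *dachd*, a dachshund family cofactor, stood at 2.90, 3.75 and 2.67 CPM in KO 1, 2 and 3 and at 27.5, 16.9 and 19.1 CPM in KO-EX 1, 2 and 3, a rise of 2.77 on the log2 scale (SE 0.387, adjusted p = 0.0097). The zinc finger gene *znf395a* was at 3.16, 2.13 and 2.72 CPM in KO 1, 2 and 3 and at 9.62, 11.3 and 19 CPM in KO-EX 1, 2 and 3. Exercised libraries of *dachd* and *znf395a* exceeded every WT library as well, which reached 5.32 CPM for *dachd* and 4.51 CPM for *znf395a*. *aff3*, of the AF4/FMR2 family of transcription elongation factors, went from 6.70 to 7.50 CPM in *bves* KO to 15.3 to 17.1 CPM in *bves* KO-EX. The cytochrome P450 genes *cyp2ad3* and *cyp2p6*, which encode monooxygenases, were at 6.17 to 7.38 CPM and 9.42 to 10.3 CPM in *bves* KO and at 15.5 to 20.9 CPM and 23.9 to 24.2 CPM in *bves* KO-EX. Since *cyp2ad3* has close paralogs, reads may have been divided between them. *rbpms2b*, an RNA-binding protein gene, and *mkrn4*, of the makorin family of ubiquitin ligases, were also called up, with log2 fold changes of 1.39 and 2.86 (adjusted p = 0.016 and 0.0127), and *mkrn4* stood below 3 CPM in every library.

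**Figure D3:**
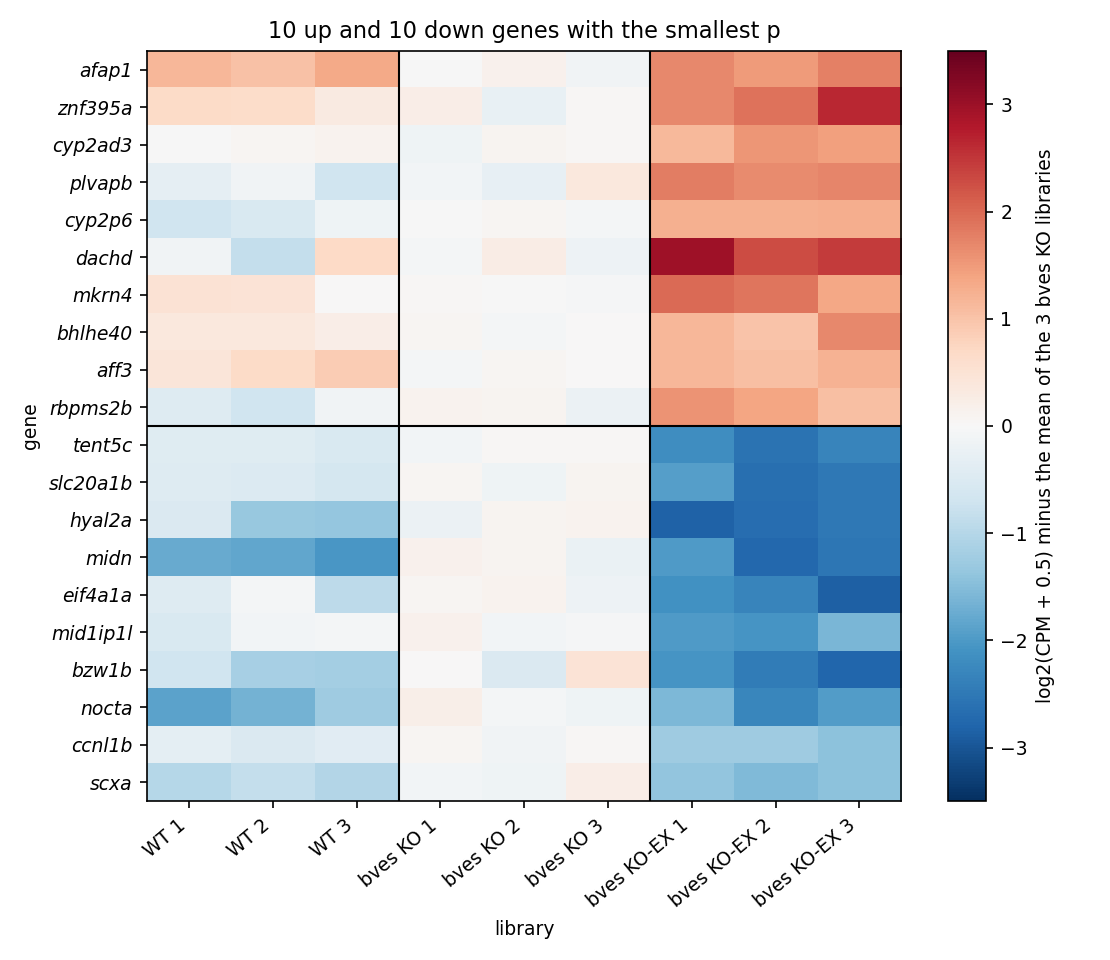
Colour gives log2(CPM + 0.5) of each library (columns) minus the mean of the 3 *bves* KO libraries for the 10 genes up and the 10 genes down with the smallest p (rows), red above and blue below. The 3 *bves* KO-EX columns have the same colour in every row, KO-EX 2 included. The WT columns of *midn* and *nocta* are blue as well, and paler than the deepest exercised column.

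The genes that fell included several with roles in RNA and protein synthesis. *tent5c* encodes a poly(A) polymerase that lengthens the tails of messages. It was at 34.6, 38.2 and 38.2 CPM in KO 1, 2 and 3 and at 7.73, 5.72 and 7.07 CPM in KO-EX 1, 2 and 3, below the WT libraries too (25.3 to 27.5 CPM), and fell by 2.44 on the log2 scale (SE 0.178, adjusted p = 0.000397). *eif4a1a*, the RNA helicase of the complex that begins translation, was at 122, 128 and 103 CPM in KO 1, 2 and 3 and at 26.5, 23.0 and 15.8 CPM in KO-EX 1, 2 and 3, below WT at 61.7 to 113 CPM. *bzw1b*, whose mammalian counterpart sets how strictly start codons are chosen, was at 123, 86.0 and 172 CPM in KO 1, 2 and 3 and at 28.9, 21.9 and 17.4 CPM in KO-EX 1, 2 and 3. The log2 fold changes of *eif4a1a* and *bzw1b* were -2.44 and -2.48 (adjusted p = 0.00659 and 0.00748). *ccnl1b*, a cyclin tied to splicing, was at 52.4 to 60.4 CPM in *bves* KO and 20.7 to 24 CPM in *bves* KO-EX.

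Other genes of this group returned to about the WT level or went below it. *midn* encodes midnolin, which in mammals brings short-lived nuclear proteins, immediate early factors among them, to the proteasome. It stood at 37.0, 35.9 and 31.0 CPM in WT 1, 2 and 3, at 141, 136 and 108 CPM in KO 1, 2 and 3, and at 32.1, 18.5 and 21.6 CPM in KO-EX 1, 2 and 3. The difference between *bves* KO-EX and *bves* KO was -2.42 on the log2 scale (SE 0.244, adjusted p = 0.0028), and that between *bves* KO and WT was 1.89 (adjusted p = 0.00511), where 1.06% of tested genes were called in either direction. Both values share the *bves* KO libraries. *nocta*, the circadian nocturnin gene, had 10.7 to 16.9 CPM in WT, 36.7 to 47.5 CPM in *bves* KO and 8.06 to 13.4 CPM in *bves* KO-EX. *scxa*, the scleraxis factor of tendon cells, had 4.00 to 4.59 CPM in WT, 7.73 to 10.3 CPM in *bves* KO and 2.63 to 3.00 CPM in *bves* KO-EX. Like *scxa*, *slc20a1b*, a sodium-phosphate transporter gene, lay below WT (60.2 to 67.0 CPM), at 23.6, 14.3 and 15.8 CPM in KO-EX 1, 2 and 3 against 97.0, 82.2 and 97.4 CPM in KO 1, 2 and 3. *hyal2a*, which encodes a hyaluronan-degrading enzyme, was at 14 to 17.5 CPM in *bves* KO, 1.83 to 2.45 CPM in *bves* KO-EX and 6.08 to 11.3 CPM in WT, and *mid1ip1l*, whose mammalian relative promotes fatty acid synthesis, was at 109 to 131 CPM, 27.7 to 38.8 CPM and 81.0 to 113 CPM. With KO-EX 2 as the only exercised library, *tent5c*, *slc20a1b* and *midn* were the 3 genes still called down (adjusted p = 0.0436 for each), with log2 fold changes of -2.71, -2.70 and -2.81.

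Most immediate early transcription factors had negative differences, and a few passed the test. Of 27 tested members 3 were called down and 0 up, where 1.4% of all tested genes were called in either direction, and 24 of 27 had a negative log2 fold change with a median of -0.65, beside 0.01 over all tested genes. 12 of the 27 were lower in every exercised library than in every unexercised one (10.8% among all tested genes). Relative to the mean of *bves* KO, the list median was -0.77, -0.39 and -0.72 in KO-EX 1, 2 and 3. It was -0.42, -0.46 and -0.75 in WT 1, 2 and 3, so the WT and exercised ranges of the list overlapped. *fosl2*, an AP-1 subunit, was at 36.6, 22.6 and 32.8 CPM in KO 1, 2 and 3 and at 6.06, 9 and 4.29 CPM in KO-EX 1, 2 and 3, with WT at 6.53 to 12.1 CPM. *fosl2* fell by 2.25 on the log2 scale (SE 0.317, adjusted p = 0.0097). *jund*, another AP-1 subunit, went from 35.6 to 42.8 CPM in *bves* KO to 15.6 to 18.8 CPM in *bves* KO-EX, below WT at 24.1 to 30.6 CPM. *mycb*, a Myc factor that drives growth genes, went from 22.5 to 34.5 CPM to 5.49 to 9.80 CPM, below WT at 16.7 to 46.1 CPM. In KO-EX 2 alone the log2 fold changes of *fosl2*, *jund* and *mycb* were -1.79, -1.08 and -1.62.

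Other members of that list were not called. *egr1* was at 11.3, 15.0 and 21.6 CPM in KO 1, 2 and 3 and at 9.62, 12.9 and 22.9 CPM in KO-EX 1, 2 and 3, so the groups of this early growth response gene overlapped throughout. The nuclear receptor gene *nr4a1* was lower in every exercised library, at 248, 72.3 and 229 CPM in KO-EX 1, 2 and 3 against 296 to 490 CPM in *bves* KO. Its difference of -1.04 was not called (adjusted p = 0.278). Over the scaling choices the median of the list stayed between -0.66 and -0.53. Without KO 1 none of its members was called, without KO 3 there was 1, and with KO-EX 2 as the only exercised library there was none, at a median of -0.54.

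Heat shock genes had mostly negative differences as well. Of 40 tested chaperone and heat shock genes 6 were called down and 0 up (1.4% called among all tested genes), 35 were negative with a median of -0.38, and 15 were lower in every exercised library (10.8% among all tested genes). *hsp70.2*, an inducible HSP70, was at 15.4, 47.2 and 37.6 CPM in WT 1, 2 and 3, at 53.3, 42.5 and 58.1 CPM in KO 1, 2 and 3, and at 3.61, 7.69 and 4.78 CPM in KO-EX 1, 2 and 3. Every exercised library was below every WT and *bves* KO library, and the difference from *bves* KO was -3.25 on the log2 scale (SE 0.418, adjusted p = 0.00872) and -2.75 in KO-EX 2 alone. Its close copies *hsp70.1* and *hsp70.3* moved with it, with log2 fold changes of -3.05 and -3.28 (adjusted p = 0.0437 and 0.036), but the 3 genes are near identical and the division of reads among them is uncertain.

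Partners of HSP70 were among the calls. *bag3*, the co-chaperone that clears damaged filament proteins at the Z-disc, was at 126, 91.2 and 138 CPM in KO 1, 2 and 3 and at 32.6, 41.4 and 40.6 CPM in KO-EX 1, 2 and 3, below WT at 58.3 to 93.8 CPM. *hsp90aa1.2*, a cytosolic HSP90, was at 34.6 to 47.2 CPM in *bves* KO and 7.01 to 16.3 CPM in *bves* KO-EX. *dnajb1b*, the HSP40 that works with HSP70, was at 11.2 to 15.5 CPM in *bves* KO and 3.75 to 6.71 CPM in *bves* KO-EX. Their log2 fold changes were -1.63, -1.74 and -1.37 (adjusted p = 0.0146, 0.0221 and 0.034). Constitutive *hspa8* was at 459 to 536 CPM and 247 to 384 CPM without being called (adjusted p = 0.164), and *hsf1*, the factor that induces heat shock genes, was at 7.13 to 7.67 CPM and 5.11 to 5.95 CPM (adjusted p = 0.523). Leaving out KO 1, KO 3, KO-EX 1 or KO-EX 3 each kept 1 call in the list, and with KO-EX 2 as the only exercised library none was, at a median of -0.46.

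**Figure D4:**
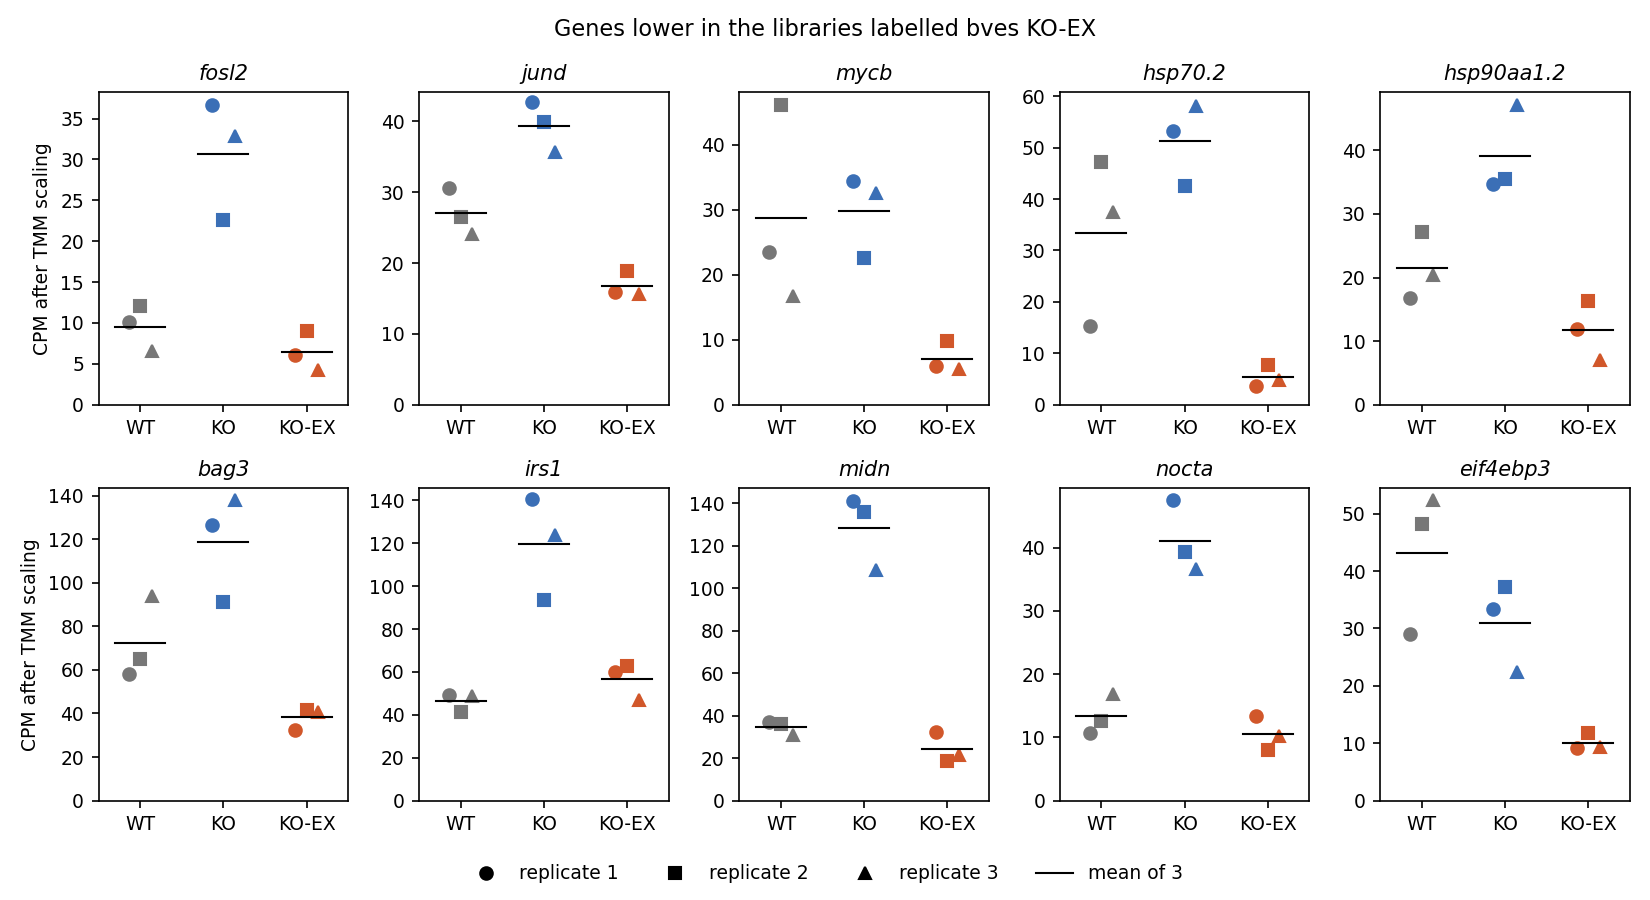
CPM after TMM scaling (linear axis from 0) in WT (grey), *bves* KO (blue) and *bves* KO-EX (orange) for 10 named genes called down, 1 symbol per replicate number and a bar at the mean of 3 libraries. In each panel the 3 exercised libraries lie below the 3 *bves* KO libraries. For *nocta* and *irs1* they lie near WT, and for *midn* KO-EX 1 lies near WT and the others below it. For *jund*, *mycb*, *hsp70.2*, *hsp90aa1.2*, *bag3* and *eif4ebp3* they lie below all WT libraries.

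Genes of the cytosolic ribosome had small negative differences, none of which passed the test. All 82 tested genes with an rps or rpl symbol in the KEGG Ribosome set had a negative log2 fold change, from -0.62 to -0.27 with a median of -0.45, and 40 of the 82 were lower in every exercised library (10.8% among all tested genes). The lowest adjusted p was 0.499, and 0 of the 82 were called. *rplp0*, a stalk protein of the large subunit, was at 2354, 2954 and 2432 CPM in KO 1, 2 and 3 and at 1695, 2088 and 1876 CPM in KO-EX 1, 2 and 3. The 43 mitochondrial ribosomal genes of the set had 15 positive and 28 negative values, with a median of -0.04 that became 0.06 under total-count scaling. Under total-count scaling the cytosolic median was -0.33, and with KO-EX 2 as the only exercised library it was -0.31. Over the whole set the median per library was -0.47, -0.26 and -0.40 in KO-EX 1, 2 and 3, 0.04, 0.21 and -0.24 in KO 1, 2 and 3, and 1.23 in WT 2, which stood apart from WT 1 (0.22) and WT 3 (-0.01). KO-EX 2 was thus close to KO 3. These per-library values are log2 differences from the mean of the *bves* KO libraries.

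Some genes that pass growth signals to translation were called. In the list of mTOR complexes, regulators and targets 1 of 46 tested members was called (2.17%, beside 1.4% of all tested genes). This was *eif4ebp3*, which encodes a repressor of the cap-binding protein. It was at 33.4, 37.2 and 22.5 CPM in KO 1, 2 and 3 and at 9.23, 11.7 and 9.35 CPM in KO-EX 1, 2 and 3, below WT at 29.1 to 52.3 CPM (log2 fold change -1.62, SE 0.267, adjusted p = 0.0205). Of 47 tested insulin, IGF and growth hormone genes 2 were called (4.26%, beside the same 1.4%), both down. *irs1*, the adaptor of the insulin receptor, was at 49.2, 41.3 and 48.6 CPM in WT 1, 2 and 3, at 141, 93.8 and 124 CPM in KO 1, 2 and 3, and at 59.9, 62.8 and 47.1 CPM in KO-EX 1, 2 and 3. *pik3r1*, the regulatory subunit of PI3-kinase, was at 227 to 250 CPM in *bves* KO and 83.4 to 102 CPM in *bves* KO-EX, below WT at 156 to 223 CPM. Log2 fold changes were -1.08 for *irs1* and -1.31 for *pik3r1* (adjusted p = 0.0366 and 0.0208), and each call was kept in 1 of the 6 fits that left out a compared library, the one without KO 2. In KO-EX 2 alone they were -0.94 and -1.51, and that of *eif4ebp3* was -1.42. The medians of the mTOR list and the insulin list were both -0.07 and turned to 0.04 and 0.03 under total-count scaling. In the larger KEGG sets calls went both ways, with 2 up and 6 down of 292 tested for insulin (2.74%) and 2 up and 5 down of 283 for mTOR (2.47%). Those up were *pik3cg*, a PI3-kinase gene, and *braf* in both sets, with log2 fold changes of 1.23 and 1.54 (adjusted p = 0.0307 and 0.0332).

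Single genes of polyamine, phosphate and cyclic AMP metabolism fell. Of 37 tested members of this list 17 were positive and 5 were called (13.5%, beside 1.4% of all tested genes). All 5 were down, *slc20a1b* above and 4 more. The list median was -0.04 and became 0.08 under total-count scaling. *odc1*, the ornithine decarboxylase that starts polyamine synthesis, was at 12.1, 10.6 and 18.7 CPM in KO 1, 2 and 3 and at 2.78, 5.53 and 2.5 CPM in KO-EX 1, 2 and 3. *sat1a.2*, the acetyltransferase that starts polyamine breakdown, was at 28.8 to 32.4 CPM in *bves* KO and 10 to 16.8 CPM in *bves* KO-EX. *pde7a*, a phosphodiesterase that degrades cAMP, was at 90.1, 63.0 and 112 CPM in KO 1, 2 and 3 and at 29.0, 24.9 and 20.6 CPM in KO-EX 1, 2 and 3, near WT at 27.1 to 37.8 CPM. *adrb2b*, a beta-adrenergic receptor that raises cAMP, was at 18.6 to 21.2 CPM in *bves* KO, 4.74 to 8.51 CPM in *bves* KO-EX and 12.5 to 18.2 CPM in WT. The log2 fold changes were -1.92 for *odc1*, -1.11 for *sat1a.2*, -1.83 for *pde7a* and -1.54 for *adrb2b* (adjusted p = 0.034, 0.0324, 0.00961 and 0.016). In KO-EX 2 alone they were -1.33, -1.0, -1.85 and -2.11.

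Clock genes moved in both directions. Of 39 tested members 2 were called up and 1 down (7.69% called, beside 1.4% of all tested genes). The median was -0.13 and stayed negative under each scaling (-0.15 to -0.03). *nocta* above, which was called down, was not a member of the list. The GO term circadian regulation of gene expression held it, with 1 call up and 2 down of 33 tested (9.09%). *bhlhe40*, which represses clock-driven transcription, was at 21.3, 19.4 and 20.6 CPM in KO 1, 2 and 3 and at 46.5, 41.2 and 66.7 CPM in KO-EX 1, 2 and 3, above WT at 24.2 to 26.6 CPM. *rorca*, an ROR nuclear receptor that activates clock genes, was at 1.5 to 2.45 CPM in *bves* KO and 5.73 to 9.57 CPM in *bves* KO-EX, with WT at 3.46 to 7.29 CPM. *ciartb*, a repressor of the clock loop, went the other way, from 7.84 to 11.7 CPM in *bves* KO to 2.25 to 3.97 CPM in *bves* KO-EX. Their log2 fold changes were 1.33, 1.99 and -1.72 (adjusted p = 0.0144, 0.0205 and 0.0138), and 0.99, 1.91 and -2.21 in KO-EX 2 alone. The period gene *per2* was at 38.9 to 45.9 CPM in *bves* KO and at 16.9 to 26 CPM in *bves* KO-EX, with no overlap, and missed the threshold (log2 fold change -0.99, adjusted p = 0.0557). No member of the clock list was called without KO 1 or without KO 3. The sources used here do not give the hour of sampling for each group, and its part in these values was not tested.

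Endothelial genes split. Besides *plvapb*, *cldn5b*, a claudin of endothelial tight junctions, was called up, at 21.3, 17.8 and 23.9 CPM in KO 1, 2 and 3 and 78.7, 36.6 and 43.1 CPM in KO-EX 1, 2 and 3 (log2 fold change 1.33, SE 0.281, adjusted p = 0.0438, and 0.78 in KO-EX 2 alone). Those 2 were the only calls among 39 tested angiogenesis and endothelial genes (5.13%, beside 1.4% of all tested genes), whose median was 0.04. Outside that list, the GO term angiogenesis held 3 calls of 127 tested (2.36%, beside the same 1.4%). They were *fli1b*, up by 1.00 on the log2 scale, and *gna13b* and *ramp2*, with log2 fold changes of -1.66 and -1.20. The VEGF receptor gene *kdrl* was lower in every exercised library, at 117, 68.3 and 84.2 CPM against 146, 176 and 141 CPM in KO 1, 2 and 3 (adjusted p = 0.185), and *cdh5*, the cadherin of endothelial junctions, overlapped at 55.6 to 83.1 CPM in *bves* KO and 60.3 to 87.9 CPM in *bves* KO-EX. Summed over 8 endothelial markers the level was 337 to 383 CPM in *bves* KO and 303 to 456 CPM in *bves* KO-EX. In bulk muscle fewer cells of a type and less RNA per cell cannot be told apart, here and for all cell types below.

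Genes of the extracellular matrix did not move as a block. Among 62 tested collagen and matrix remodelling genes 3 were called (4.84%, beside 1.4% of all tested genes), all down, *hyal2a* above and 2 more. However, 37 of the 62 were positive and the median was 0.09. *loxl2a*, which crosslinks collagen, was at 12.9, 18.2 and 22.7 CPM in WT 1, 2 and 3, at 49.7, 70.4 and 62.5 CPM in KO 1, 2 and 3, and at 27.2, 27.1 and 26.9 CPM in KO-EX 1, 2 and 3 (log2 fold change -1.17, SE 0.225, adjusted p = 0.0324). *ccn2a*, connective tissue growth factor, was at 57.4 to 91.7 CPM in *bves* KO and 26.4 to 35.2 CPM in *bves* KO-EX, with WT at 27.4 to 35.2 CPM. In KO-EX 2 alone the log2 fold changes of *loxl2a* and *ccn2a* were -1.18 and -1.02. The collagen I gene *col1a1a* was not called, with 233, 262 and 383 CPM in KO 1, 2 and 3 and an overlapping 347, 465 and 521 CPM in KO-EX 1, 2 and 3 (adjusted p = 0.326), where WT had 91.8 to 134 CPM. Summed fibroblast and tenocyte markers ran from 600 to 907 CPM in *bves* KO and 809 to 1120 CPM in *bves* KO-EX. This sum includes *col1a1a* and *col1a2*, so it is not separate from the matrix values. Of the 8 tested markers 5 were positive and 3 negative. The only call was *scxa*, which fell (12.5%, beside 1.4% of all tested genes). The part of these cells in the matrix values was not tested.

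RNA of other tissues varied between the exercised libraries. All 8 tested epidermis markers were positive, with a median of 2.12, and none was called. *krt5*, a keratin of the basal epidermis, was at 0.858, 1.38 and 4.90 CPM in KO 1, 2 and 3 and at 236, 72.5 and 24.5 CPM in KO-EX 1, 2 and 3, and WT spread from 3.24 to 75.4 CPM. *krt17* reached 18.4 CPM in KO-EX 1 and lay at 2.86 and 0.326 CPM in KO-EX 2 and 3, and *epcam*, an epithelial adhesion gene, was at 6.39, 1.83 and 0.326 CPM, so for both KO-EX 3 lay below KO 3 at 0.654 CPM. The keratin *krt4* did not follow, at 98.5 to 130 CPM in *bves* KO and 91.4 to 130 CPM in *bves* KO-EX. Summed over 10 epidermis markers the level was 139 to 181 CPM in *bves* KO and 171 to 548 CPM in *bves* KO-EX, and its part in the calls was not tested. Summed T and B lymphocyte markers ran the other way without overlap, from 9.26 to 18.6 CPM in *bves* KO and 4.57 to 8.73 CPM in *bves* KO-EX. Only 2 of these 9 markers passed the low-count filter, with log2 fold changes of -1.39 and 0.02, and neither was called. *cd79a* and *pax5* were at 0 in the 6 libraries compared. Adipocyte markers summed to 176 to 228 CPM in *bves* KO and 257 to 351 CPM in *bves* KO-EX, with *cfd*, the adipsin gene, at 27.5 to 30.6 CPM and 42.1 to 69.6 CPM (adjusted p = 0.147). Most of this sum was *fabp11a*, at 2159 to 3170 estimated counts in *bves* KO and 3427 to 4538 in *bves* KO-EX. Of the 6 tested adipocyte markers 4 were positive and 2 negative, and 0 were called. The 9 erythrocyte markers were all positive with a median of 0.43, and the globin *hbba1* overlapped at 256 to 409 CPM and 289 to 527 CPM.

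The fast-twitch contractile list held 1 call, whose level differed widely between the exercised libraries. *myhz1.2*, a fast skeletal myosin heavy chain, was at 0.671, 1.36 and 0.608 CPM in WT 1, 2 and 3, at 0.483, 0.865 and 0.599 CPM in KO 1, 2 and 3, and at 749, 9.42 and 592 CPM in KO-EX 1, 2 and 3. Among the exercised libraries, those with *bves* in the WT range were far above KO-EX 2. KO-EX 2 was above every WT and *bves* KO library, and the WT and *bves* KO libraries overlapped. Whether the level of *bves* bears on this split was not tested. The fitted difference was 9.43 on the log2 scale (SE 1.59, adjusted p = 0.0339), and it was 3.83 and called in KO-EX 2 alone (adjusted p = 0.0436). It was called in 1 of the 6 fits that left out a compared library, and the call was also lost with each WT library left out, under total-count scaling, without the low-count filter, with only the 6 libraries compared and with the replicate block. Its relatives in the myosin family followed the same libraries but were not called, with *myha* at 1653, 13.2 and 1283 CPM in KO-EX 1, 2 and 3 against 3.65 to 12.6 CPM in *bves* KO, and *myhz1.3* at 53.2, 0.0938 and 48.8 CPM. WT 1 and WT 2 also held *myha*, at 227 and 243 CPM, and WT 3 did not, at 2.33 CPM. The myosin genes are near-identical copies, so the division of reads among them is uncertain. Another fast myosin, *myhz2*, overlapped, at 34949 to 41667 CPM in *bves* KO and 29449 to 35268 CPM in *bves* KO-EX.

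*myhz1.2* was the only call among 42 fast-twitch genes, and 0 of 34 slow-twitch genes were called, with medians of -0.27 and -0.16. Outside both lists, the GO term muscle contraction held 2 called genes of 30 tested (6.67%, beside 1.4% of all tested genes). They were *myhz1.2* and the tropomyosin *tpm4a*, which fell by 1.09 on the log2 scale (adjusted p = 0.0437). The slow calcium pump gene *atp2a2b* had the smallest p of the slow list, at 28.7 to 32.9 CPM in *bves* KO and 18.6 to 20.7 CPM in *bves* KO-EX (adjusted p = 0.0935). Of 52 calcium handling genes none was called, and *sypl2b*, a triad membrane protein gene, came nearest with 4.67 to 5.39 CPM and 2.12 to 2.95 CPM (adjusted p = 0.0613). *popdc3*, the Popeye gene beside *bves* in the RefSeq gene order of GRCz12tu, was at 2.73, 7.21 and 4.52 CPM in KO 1, 2 and 3 and at 7.56, 3.24 and 9.62 CPM in KO-EX 1, 2 and 3, so KO-EX 2 was the lowest exercised library there as well.

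Nuclear genes of the respiratory chain differed between exercised libraries more than between groups. Of 37 complex I subunits and 54 subunits of complexes II to V none was called, with medians of 0.07 and 0.12. Relative to the mean of *bves* KO, the median complex I subunit was at 0.42, -0.44 and 0.17 on the log2 scale in KO-EX 1, 2 and 3, and the median subunit of complexes II to V was at 0.46, -0.47 and 0.18. The *bves* KO libraries ranged from -0.12 to 0.13 and from -0.12 to 0.16, and WT from -0.15 to 0.58 and from -0.03 to 0.55. After TMM scaling KO-EX 2 was thus the lowest of all 9 libraries in both lists, and KO-EX 1 and 3 lay above the 3 *bves* KO libraries. Whether the level of *bves* or the TMM factor of KO-EX 2, the highest of the 9 (1.17), bears on this was not tested. *ndufa10*, a complex I subunit, was at 402, 170 and 362 CPM in KO-EX 1, 2 and 3 and 216 to 280 CPM in *bves* KO. *cox4i1l*, of the list of complexes II to V, went the other way. It was at 5657, 3407 and 6016 estimated counts in KO 1, 2 and 3 and at 4190, 2664 and 3606 in KO-EX 1, 2 and 3, so the groups overlapped.

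The 13 mitochondrially encoded messages were all higher on average. Their median log2 fold change was 0.46, 3 of the 13 were higher in every exercised library (12.2% among all tested genes), and none was called. Relative to the mean of *bves* KO, their median was 0.87, 0.11 and 0.31 in KO-EX 1, 2 and 3. In KO 1, 2 and 3 it was -0.02, 0.20 and -0.11, so after TMM scaling KO-EX 2 lay within the *bves* KO range. By share of all counts KO-EX 2 lay above that range, at 16.2% against 11.8% to 14.1% in *bves* KO. The place of KO-EX 2, which had the highest TMM factor (1.17), thus depended on the measure. With KO-EX 2 as the only exercised library the median log2 fold change was 0.09. *mt-nd5*, a complex I subunit made in the organelle, was at 3927, 5197 and 4255 CPM in KO 1, 2 and 3 and at 8546, 5213 and 5547 CPM in KO-EX 1, 2 and 3 (log2 fold change 0.53, adjusted p = 0.416). *mt-co1*, a subunit of complex IV, was at 86333, 48225 and 63496 CPM in KO-EX 1, 2 and 3 and overlapped with *bves* KO at 41601 to 58766 CPM. Among 43 regulators of mitochondrial biogenesis none was called, and *nfe2l1a*, a factor for proteasome and antioxidant genes, had the smallest p, at 5.36 to 14 CPM in *bves* KO and 17.8 to 33.7 CPM in *bves* KO-EX (adjusted p = 0.0691). In the same list *ppargc1a*, the coactivator PGC-1 alpha, was at 21.6, 16.3 and 37.2 CPM in KO 1, 2 and 3 and at 23.3, 13.9 and 21.0 CPM in KO-EX 1, 2 and 3 (adjusted p = 0.821).

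After TMM scaling KO-EX 2 was also the lowest library in the lists of fuel genes, while KO-EX 3 did not always side with KO-EX 1. KO-EX 2 had the highest TMM factor (1.17), and the medians per library were not computed under another scaling, so this rank may depend on the scaling. The median of 48 fatty acid oxidation genes was 0.23, -0.59 and -0.15 in KO-EX 1, 2 and 3 relative to *bves* KO, and that of 40 glycolysis genes was 0.27, -0.33 and 0.25. In the first list KO-EX 3 lay below all *bves* KO libraries, and in the second KO-EX 1 and 3 lay above them. *acsl4b*, a long-chain acyl-CoA synthetase gene, was the only call, at 31.4, 18.5 and 25.7 CPM in KO 1, 2 and 3 and at 7, 8.11 and 5.82 CPM in KO-EX 1, 2 and 3, close to WT at 6.38 to 8.97 CPM. It fell by 1.85 on the log2 scale (SE 0.24, adjusted p = 0.00748), a call kept in all 6 fits that left out a compared library. *pfkpa*, of the glycolysis list, was not called, at 145 to 164 estimated counts in *bves* KO and 93 to 110 in *bves* KO-EX. Among 38 glucose uptake and glycogen genes none was called, with *ppp1r3ab*, a glycogen-targeting subunit of protein phosphatase, at 179 to 196 CPM in *bves* KO and 73.8 to 112 CPM in *bves* KO-EX (adjusted p = 0.0919). Of 42 hypoxia genes *loxl2a* alone was called, and the list median was 0.25, -0.57 and -0.10 in KO-EX 1, 2 and 3.

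**Figure D5:**
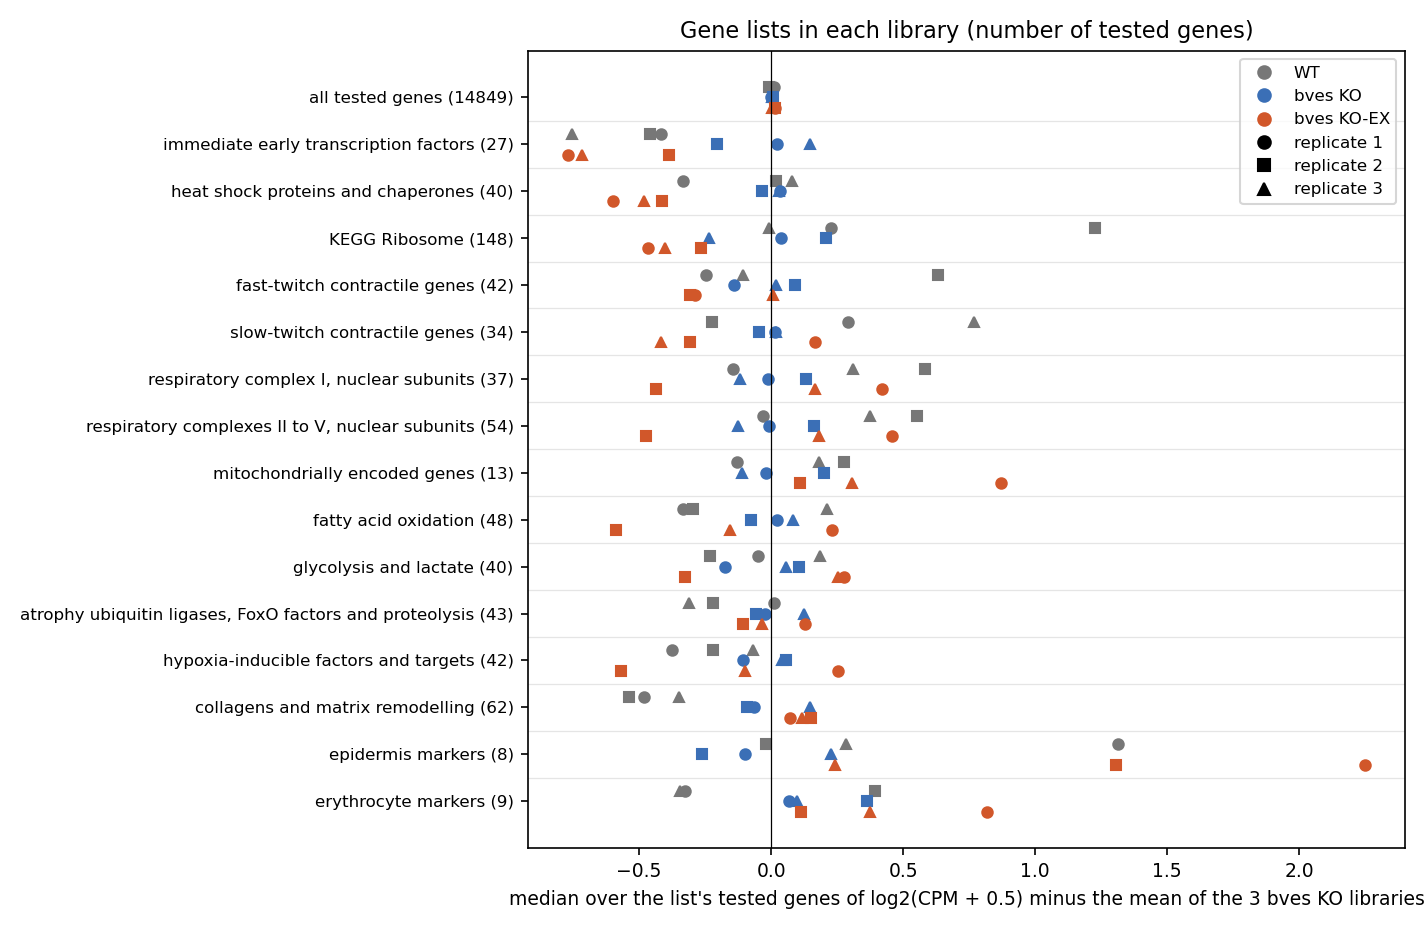
Median over the tested genes of each list of log2(CPM + 0.5) minus the mean of the 3 *bves* KO libraries (horizontal axis), per library, with WT in grey, *bves* KO in blue, *bves* KO-EX in orange and 1 symbol per replicate number. The 3 exercised libraries lie together on the left for immediate early factors, heat shock genes and the ribosome, and are spread out for the respiratory complexes, fatty acid oxidation and hypoxia lists, where KO-EX 2 (square) is lowest of all 9 libraries, at -0.44 for complex I. CPM are after TMM scaling, in which KO-EX 2 has the highest factor (1.17), and other scalings are not shown.

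Genes of muscle wasting were not called. Of 43 tested ubiquitin ligases, FoxO factors and proteolysis genes 0 passed, with a median of -0.05 that became 0.05 under total-count scaling. *ubc*, a polyubiquitin gene, was at 79.9, 76.0 and 91.6 CPM in KO 1, 2 and 3 and at 166, 147 and 165 CPM in KO-EX 1, 2 and 3, a rise with adjusted p = 0.0441 whose log2 fold change of 0.95 stayed under the fold threshold. The atrophy ligase gene *fbxo32* was at 144, 46.0 and 71.0 CPM in KO 1, 2 and 3 and at 428, 94.4 and 88.7 CPM in KO-EX 1, 2 and 3 (adjusted p = 0.508). *trim63a*, which encodes the atrophy ligase MuRF1, was at 235, 9 and 19.3 CPM in KO 1, 2 and 3 and at 384, 138 and 190 CPM in KO-EX 1, 2 and 3 (adjusted p = 0.678). For both ligases the groups overlapped, and replicate 1 was the highest library of each group. Among 24 myogenic and satellite cell genes *hey1*, a Notch target, was the only call, at 9.57 to 15.0 CPM in *bves* KO and 3.99 to 5.17 CPM in *bves* KO-EX. That call was lost without KO 1, KO 3, KO-EX 1, KO-EX 2 or KO-EX 3, and under total-count scaling.

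Stress genes outside the heat shock family gave single calls. Of 30 genes of the integrated stress response and unfolded protein response 1 was called, *herpud1*, which helps to clear misfolded proteins from the endoplasmic reticulum, at 5.48 to 7.84 CPM in *bves* KO and 13.8 to 14.3 CPM in *bves* KO-EX (log2 fold change 1.13, SE 0.203, adjusted p = 0.0247). Of 23 glucocorticoid-responsive genes 1 was called, the zinc finger gene *zbtb16b*, at 44.7 to 63.8 CPM and 22.5 to 27.8 CPM, below every WT library. The calls of *herpud1* and *zbtb16b* were lost without KO 1, KO 3, KO-EX 1, KO-EX 2 or KO-EX 3, and under total-count scaling. In 36 p53 and apoptosis genes, 38 antioxidant genes and 24 cell cycle genes none was called. Their members with the smallest p were *bbc3*, the PUMA gene, at 0.288 to 0.545 CPM in *bves* KO and 0.979 to 1.95 CPM in *bves* KO-EX, the glutathione peroxidase *gpx1b*, at 0.0577 to 9.81 CPM and 0 to 0.563 CPM, and the ribonucleotide reductase *rrm2*, at 0.545 to 1.04 CPM and 0.707 to 2.67 CPM, with adjusted p = 0.111, 0.227 and 0.269.

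The remaining lists had no call. These were myostatin, activin and BMP signalling (44 tested), cholesterol and lipid synthesis (36), neuromuscular junction and denervation (30), the dystrophin complex and membrane repair (38) and the proteasome (47). Their members with the smallest p were *inhbb*, an activin subunit gene (log2 fold change 1.52, adjusted p = 0.122), *elovl1a*, a fatty acid elongase gene (-1.14, adjusted p = 0.0862), *etv5b*, an ETS factor (-1.04, adjusted p = 0.071), *fkrp*, a dystroglycan glycosylation gene (1.47, adjusted p = 0.179), and *psmd11a*, a proteasome lid subunit (-0.58, adjusted p = 0.249). Over all 32 lists, 15 held a call and 17 held none. The 30 called genes they contained were 6 up and 24 down, beside 97 up and 111 down among all tested genes. The lists were chosen with earlier results of these data known, so their balance does not describe the transcriptome.

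Among 16 genes also followed by qPCR, 2 were called (12.5%, beside 1.4% of all tested genes), *irs1* and *loxl2a*. Because that choice was made on results of these libraries, it is no independent evidence of direction. *irs2a*, the other insulin receptor substrate, was at 23.4, 12.1 and 22.7 CPM in KO 1, 2 and 3 and at 23.5, 17.8 and 25.5 CPM in KO-EX 1, 2 and 3, above WT at 2.03 to 4.15 CPM in both groups. *hmox1a*, heme oxygenase 1, was at 4.67 to 6.75 CPM and 3.59 to 6.85 CPM, and *nrp1a*, a VEGF co-receptor, was at 5.07 to 6.11 CPM and 5.11 to 6.25 CPM, so *bves* KO and *bves* KO-EX overlapped. The kinase gene *mapk6* came close to the threshold, at 167, 86.0 and 173 CPM in KO 1, 2 and 3 and 57.3, 31.9 and 54.0 CPM in KO-EX 1, 2 and 3 (log2 fold change -1.58, adjusted p = 0.0522). *sgk2b*, *igfbp1a*, *epas1a* and *hif1al*, which encode a kinase, an IGF-binding protein, a hypoxia-inducible factor and a hypoxia factor relative, all had their lowest exercised value in KO-EX 2, at 19.8, 1.17, 26.2 and 103 CPM. The groups of *sgk2b* did not overlap, at 1712 to 1948 estimated counts in *bves* KO and 422 to 996 in *bves* KO-EX. Those of *igfbp1a*, *epas1a* and *hif1al* overlapped. *igfbp1a* had the most negative log2 fold change of the 16 genes (-1.79), and none of these was called. The groups of *foxo4*, a FoxO factor, and *bcl6b*, a transcriptional repressor, did not overlap, at 23.0 to 34.5 CPM and 1.09 to 2.71 CPM in *bves* KO and 41.4 to 44.5 CPM and 5.02 to 6.69 CPM in *bves* KO-EX, without a call (adjusted p = 0.245 and 0.0977). Nor did those of *ddit3*, the stress factor CHOP, and *pik3r3a*, a PI3-kinase subunit, at 19.3 to 25.0 CPM and 35.4 to 71.6 CPM in *bves* KO and 13.5 to 18.5 CPM and 15.8 to 22.9 CPM in *bves* KO-EX (adjusted p = 0.174 and 0.0679). *atp5meb*, a subunit of ATP synthase, had its lowest exercised value in KO-EX 2, at 389, 154 and 263 CPM in KO-EX 1, 2 and 3.

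By the pathway annotation deposited with the counts, 32 of 40 KEGG pathways and 16 of 22 GO terms examined held a called gene. Since 1.4% of all tested genes were called, a large set can hold a call by its size alone. The MAPK pathway had 3 up and 14 down of 551 tested (3.09% called, beside 1.4% of all tested genes), and 3 of those down were the hsp70 copies and 2 the AP-1 genes *fosl2* and *jund*. The ErbB pathway had 2 up and 7 down of 183 tested, and protein processing in the endoplasmic reticulum 3 up and 9 down of 345 tested, which were 4.92% and 3.48% called. Cellular senescence had 5 up and 8 down of 338 (3.85%). Endocytosis, with 7 of 600 called (1.17%), and calcium signalling, with 4 of 348 (1.15%), lay under the share of all tested genes. Oxidative phosphorylation had 0 of 147, glycolysis and gluconeogenesis 0 of 93 and the proteasome 0 of 66. Many pathways share members, so these counts are not separate pieces of evidence. No set was tested for enrichment.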

How the data were processed

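PolyA-selected stranded RNA-seq of pooled skeletal muscle was made for 9 libraries (3 WT, 3 *bves* KO, 3 *bves* KO-EX), grouped by their labels. The submitters' processing notes name fastp, HISAT2, StringTie and RSEM without versions, and the genome build is not given in the sources used here. The deposited tables hold estimated counts per gene that the authors made with RSEM, which need not be whole and were rounded, and TPM values from the authors, which scale each count by gene length and depth and were not tested here. The pathway and GO annotation and the gene length came from the same tables. The deposited columns of the authors' own fold changes and p-values were not used, and 0 columns of per-sample values were left unused.

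Of 32520 genes, 14849 passed the low-count filter (filterByExpr by group). Counts were scaled by TMM and tested with the edgeR quasi-likelihood test (edgeR 4.0.16, limma 3.58.1, R 4.3.3) in 1 fit of all 9 libraries, adjusting p by Benjamini-Hochberg across the tested genes, and a call needed adjusted p under 0.05 and a fold above 2. The script was tested on simulated data. DESeq2 1.42.0, other scalings and filters, a replicate block and the omission of each library were the alternatives. Depth of 17422188 to 18860779 counts limits genes with few counts most. Strand was kept by the kit, but whether counting used it is not given in the sources used here, so overlapping antisense genes are uncertain.

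The comparison, its gene lists and tests were chosen with earlier results of these data known. Genes were named by rule: *bves*, then the 10 up and the 10 down with the smallest p among called genes that carry a gene symbol and do not overlap between groups, then in each list up to 4 called members or, with none called, the member with the smallest p, then the qPCR genes and a marker gene of 3 other cell types. Chosen after their values were seen were *hsp70.1*, *hsp70.3*, *odc1*, *egr1*, *nr4a1*, *hspa8*, *hsf1*, *per2*, *cdh5*, *col1a1a*, *krt5*, *krt17*, *epcam*, *cfd*, *myha*, *myhz1.3*, *myhz2*, *popdc3*, *rplp0*, *mt-co1*, *ppargc1a*, *fbxo32*, *trim63a* and the genes of the closing observations. Guide sequences were read from a supplementary primer table of the study.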

Additional observations from a re-analysis of the deposited data

How the results depend on the processing

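The count of genes up was 97 and moved to 225 with DESeq2, 60 with total-count scaling and 50 with a replicate block, and the count of genes down was 111 and moved to 225, 49 and 88. Leaving out 1 library at a time gave 2 to 95 genes up and 18 to 110 down, with both lowest counts in the fit without KO 1. With KO-EX 1 and KO-EX 3 both left out, 2 were up and 3 down. The share of calls that were up was 46.6%, and it was 55.0% with total-count scaling, 36.2% with the block, 10% without KO 1 and 11.4% without KO 3. An adjusted p under 0.01 left 6 genes up and 27 down, and a log2 fold change beyond 2 left 19 and 24. For *bves* the log2 fold change of 1.75 became a call with DESeq2 (1.74, adjusted p = 0.0166), and over the single-library omissions it ran from 1.45 to 2.30. The other planned scalings and filters kept both counts within 1.5 times.

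Same-numbered deviations from the group means of *bves* KO and *bves* KO-EX correlated at -0.0361, -0.281 and -0.137. These values gave no sign that the replicate numbers pair the libraries. With 1 correlation per number they cannot exclude it. The block gave 50 up and 88 down, of which 44 and 79 were among the calls without it. None of the 124 named genes changed sign as a call under the alternatives run. Of the 63 called genes named by rule or after the fact, 2 of 21 up and 13 of 42 down were called in all 6 omissions of a compared library. Lists whose count of calls moved numbered 14 of 32 without KO 1, 13 without KO 3 and 17 with DESeq2. Near-identical genes, low levels and 3 pools per group limit the rest. The promoter description that had been planned was not run.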

Other observations

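Several called genes came in functional pairs not named above, and they were chosen after their values were seen. Both subunits of glucosidase II, which trims sugars from new proteins in the endoplasmic reticulum, rose and were among the 3 calls up of the endoplasmic reticulum pathway, with *ganab* at 5.74, 7.21 and 6.32 CPM in KO 1, 2 and 3 and 12.2, 15.1 and 14.9 CPM in KO-EX 1, 2 and 3, and *prkcsh* at 3.54 to 3.70 CPM and 6.95 to 8.86 CPM (adjusted p = 0.0247 and 0.034, edgeR quasi-likelihood test). Of serine palmitoyltransferase, which begins sphingolipid synthesis, the subunit genes *sptlc2b* and *sptssa* fell, from 11.7 to 17.5 CPM to 2.99 to 4.78 CPM and from 7.95 to 10.9 CPM to 3.47 to 4.78 CPM (adjusted p = 0.0144 and 0.0214). The secreted proteases *adamts1* and *adamts9* fell by 2.53 and 2.70 on the log2 scale (adjusted p = 0.00955 and 0.00959), with 2.12 to 3.84 CPM and 2.34 to 2.72 CPM in *bves* KO-EX. *tent5ba*, a relative of *tent5c*, was at 142, 141 and 156 CPM in KO 1, 2 and 3 and at 59.3, 45.6 and 57.0 CPM in KO-EX 1, 2 and 3 (adjusted p = 0.0146), and *dachb*, a relative of *dachd*, rose from 1.13 to 2.12 CPM to 3.84 to 5.44 CPM (adjusted p = 0.0402).

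Further single genes were chosen in the same way. The keratin gene *krt94* was at 82.8, 103 and 96.6 CPM in KO 1, 2 and 3 and at 185, 223 and 194 CPM in KO-EX 1, 2 and 3, *dspa*, a desmoplakin gene, was at 7.67 to 10.1 CPM and 18.3 to 24.7 CPM, and *cgnl1*, a junction protein gene, was at 6.4 to 6.7 CPM and 11.9 to 14.3 CPM (adjusted p = 0.044, 0.044 and 0.0382). Epidermis markers summed to 139 to 181 CPM in *bves* KO and 171 to 548 CPM in *bves* KO-EX, and their part in these values was not tested. *kdm6ba*, a histone H3 lysine demethylase gene, was at 95.9, 87.5 and 84.1 CPM in KO 1, 2 and 3, at 30.5, 23.1 and 21.1 CPM in KO-EX 1, 2 and 3, and at 35.6, 21.8 and 23.2 CPM in WT 1, 2 and 3 (adjusted p = 0.00748), so the exercised libraries lay within the WT range or close to it. *slc38a4*, an amino acid transporter gene, was at 92.6 to 118 CPM in *bves* KO, 42.2 to 45 CPM in *bves* KO-EX and 36.7 to 50.5 CPM in WT (adjusted p = 0.0175).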
